A study of Homo sapiens with 45 samples.

Results

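The genes described here are 35 subunits of integrins and of the complex that ties integrins to actin, taken from 41582 genes in the expression tables. They were taken as a list of names, drawn up with earlier results of these data known: 18 integrin alpha chains, 8 beta chains and 9 cytoplasmic partners. The partners are the kindlins FERMT1, FERMT2 and FERMT3, the talins TLN1 and TLN2, vinculin (VCL), ILK, paxillin (PXN) and focal adhesion kinase (PTK2). Integrins are receptors for the extracellular matrix and for other cells, and each is a pair of 1 alpha and 1 beta chain that reaches the cell surface only when both are made. The alpha chain largely sets the ligand, and the beta tail binds talin and kindlin, which switch the receptor on and recruit the other partners. In bone and soft tissue the matrix ligands are chiefly collagens, laminins and fibronectin, and in most Ewing sarcomas the fusion EWS::FLI1 acts as an abnormal transcription factor.

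Poly(A) RNA was measured in 45 libraries of human cell lines. Of the established lines, TC71, RDES, SKES1, MHHES1, A673, EW24 and EW3 came from Ewing sarcoma. U2OS, SAOS2, MG63, KHOS, G292 and HOS-MNNG came from osteosarcoma, a malignant bone-forming tumour, and each line had 3 untreated libraries. A673 cells carrying sh908, a hairpin against the potassium channel gene KCNN1, gave 3 libraries without doxycycline and 3 with it, doxycycline being the drug that switches the hairpin on. The labels do not say whether the hairpin cells are a clone or a pool, nor the dose and time of doxycycline. Libraries of a control hairpin or of doxycycline on parental A673 were not analysed here, so the drug and the hairpin cannot be told apart.

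Total estimated counts ran from 15974173 to 51413254 per library. The Ewing sarcoma marker PRKCB stood at 55.3 to 233 TPM (a level scaled for transcript length and library size) in the 7 Ewing sarcoma lines and at no more than 0.132 TPM in the osteosarcoma lines. The osteoblast factor SP7 was detected above 1 TPM in SAOS2 alone of the osteosarcoma lines, at 22.1 TPM. HOS-MNNG and KHOS both descend from the line HOS. Replicate 3 stood apart from replicates 1 and 2 in both hairpin groups. Among the 14252 genes tested there, 26.8% were at least 2-fold above the mean of replicates 1 and 2 in replicate 3 of both groups, and 2.32% were as far below.

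The sequences just upstream of 4 genes introduce the core of the complex: ITGB1, the beta chain with the most partners, and TLN1, FERMT2 and ILK, which act at its cytoplasmic tail. Each is the 250 bases before the RefSeq transcription start on GRCh38.p14, 5′ to 3′ on the gene's strand. Capitals mark CCGGAA or its reverse complement TTCCGG, a high-affinity core for ETS factors, the family of FLI1.
ITGB1, chr10:32958231-32958480, minus strand: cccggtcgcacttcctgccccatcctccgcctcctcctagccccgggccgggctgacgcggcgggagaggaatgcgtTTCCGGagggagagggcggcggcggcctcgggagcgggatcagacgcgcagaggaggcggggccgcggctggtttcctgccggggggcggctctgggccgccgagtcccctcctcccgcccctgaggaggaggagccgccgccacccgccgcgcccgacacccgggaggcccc
TLN1, chr9:35732196-35732445, minus strand: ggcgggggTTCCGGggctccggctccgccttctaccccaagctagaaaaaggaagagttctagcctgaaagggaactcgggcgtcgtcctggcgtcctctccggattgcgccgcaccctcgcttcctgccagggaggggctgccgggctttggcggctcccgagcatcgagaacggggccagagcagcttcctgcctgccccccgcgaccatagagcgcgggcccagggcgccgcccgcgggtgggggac
FERMT2, chr14:52951051-52951300, minus strand: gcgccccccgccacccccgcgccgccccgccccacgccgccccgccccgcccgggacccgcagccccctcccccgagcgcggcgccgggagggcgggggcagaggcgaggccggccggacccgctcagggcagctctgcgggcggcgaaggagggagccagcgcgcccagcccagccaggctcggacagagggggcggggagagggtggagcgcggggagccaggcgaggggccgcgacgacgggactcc
ILK, chr11:6603524-6603773, plus strand: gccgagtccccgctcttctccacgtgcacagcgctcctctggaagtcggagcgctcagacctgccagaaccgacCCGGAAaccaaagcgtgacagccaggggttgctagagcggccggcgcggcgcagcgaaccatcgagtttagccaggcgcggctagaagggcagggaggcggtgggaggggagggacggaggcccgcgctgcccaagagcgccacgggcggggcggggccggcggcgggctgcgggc
ITGB1, TLN1 and ILK each held 1 match, and FERMT2 held none. Of the 35 members, 24 had an entry in the RefSeq promoter table, with 31 start windows between them, because some genes have several starts. CCGGAA on either strand was in 6 of these 31 windows (19.4%), those of ITGA6, ITGB5, TLN1, ITGB1, ILK and FERMT3, against 14.5% of all 35116 windows of the same length. The repeat GGAAGGAA, the form bound by EWS::FLI1 in microsatellites, was in 1 member window, that of ITGA10, against 3.06% of all windows. These matches describe the letters in the windows only.

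Between them the 13 lines used most of the family, but very unevenly. Of the 35 members, 25 reached 10 TPM in at least 1 line. The 7 that did so in every line were ITGA5, ITGB1, TLN1, VCL, ILK, PXN and PTK2. At the other end, ITGAD, ITGAE, ITGAL, ITGB6 and ITGB7 stayed under 1 TPM in all 13 lines, the highest being ITGAL at 0.212 TPM in EW3. ITGAL and ITGAD are leukocyte chains, ITGAE pairs with ITGB7 on lymphocytes of epithelia, and ITGB6 is a beta chain of epithelia. ITGAE was represented by 1 transcript in the tables, so its level may be understated.

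**Figure D1:**
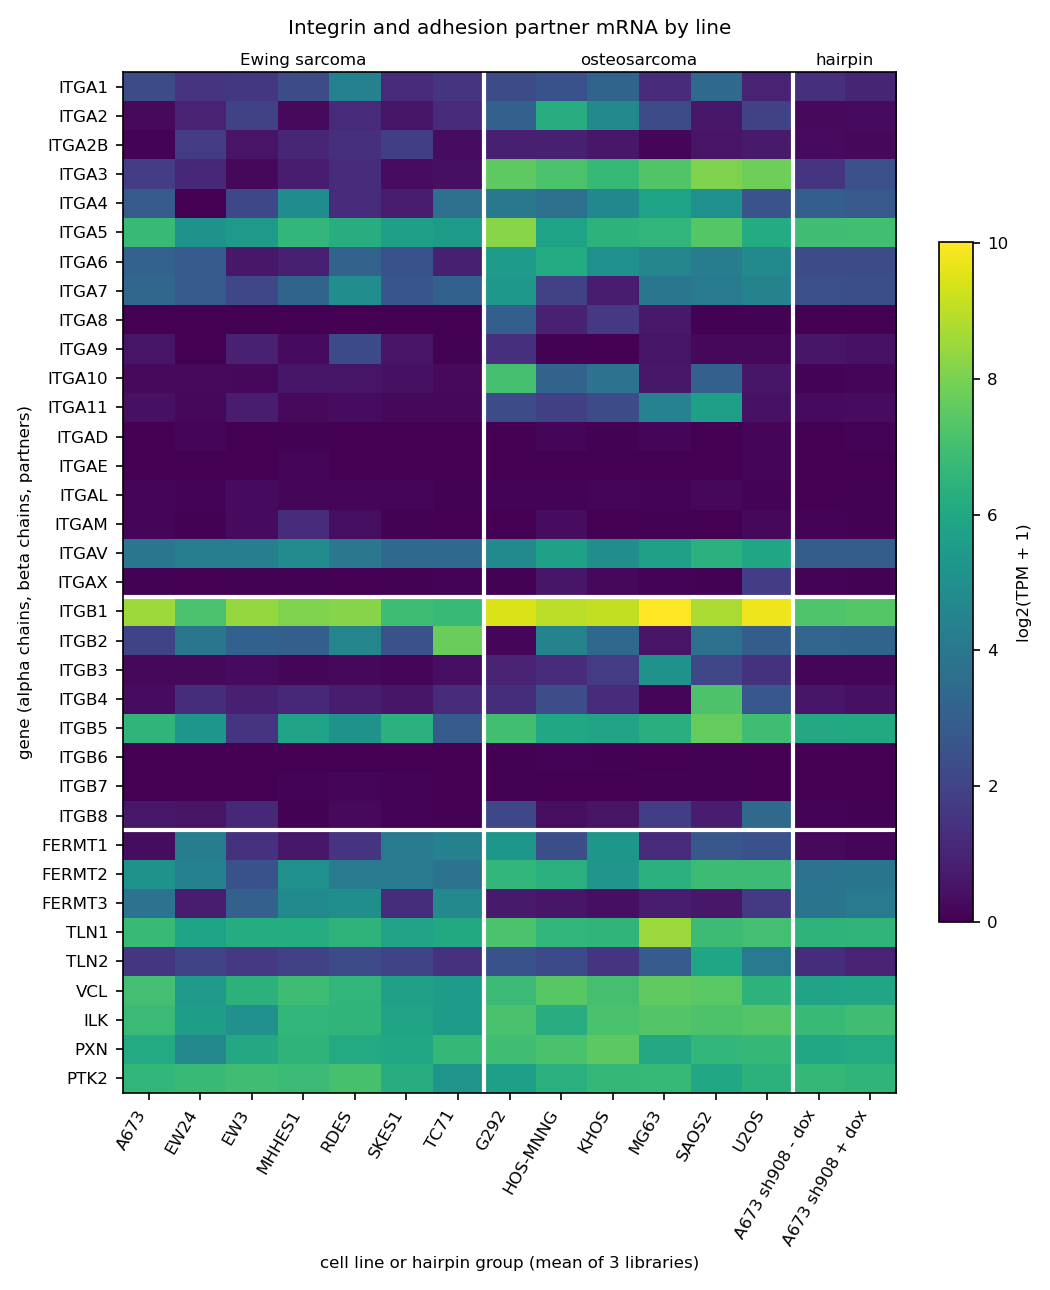
Colour gives log2(TPM + 1) of each of the 35 members (rows, ordered as alpha chains, beta chains and partners) in the 13 lines and 2 hairpin groups (columns), each a mean of 3 libraries. ITGB1 is the brightest row in every column but TC71, ITGA3 is bright in the 6 osteosarcoma lines and dark in the 7 Ewing sarcoma lines, and ITGB2 is bright in TC71.

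The first comparison asked which of these genes differ between the tumour types. Of the 29 members with enough counts to test, 15 differed at a false discovery rate (FDR) under 0.05 in edgeR's quasi-likelihood test, where the 7 and 6 lines are the replicates. HOS-MNNG and KHOS share an origin and are not independent tumours, and with these lines summed into 1 sample 14 members passed, VCL being lost (FDR 0.0836). Here 14 were lower in the Ewing sarcoma lines and 1, FERMT3, was higher. Among all 21975 genes tested, 14.4% passed in either direction, 8.46% lower and 5.99% higher. The median log2 fold change was -1.21 over the 29 members and -0.06 over all genes. By role, 6 of 14 tested alpha chains, 3 of 6 beta chains and 6 of 9 partners passed. Lower RNA per cell and fewer cells with the RNA cannot be told apart in such libraries. The median log2 TPM ratio of all genes was 0.08, so TPM values sit about 0.15 above edgeR's scale in this comparison.

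**Figure D2:**
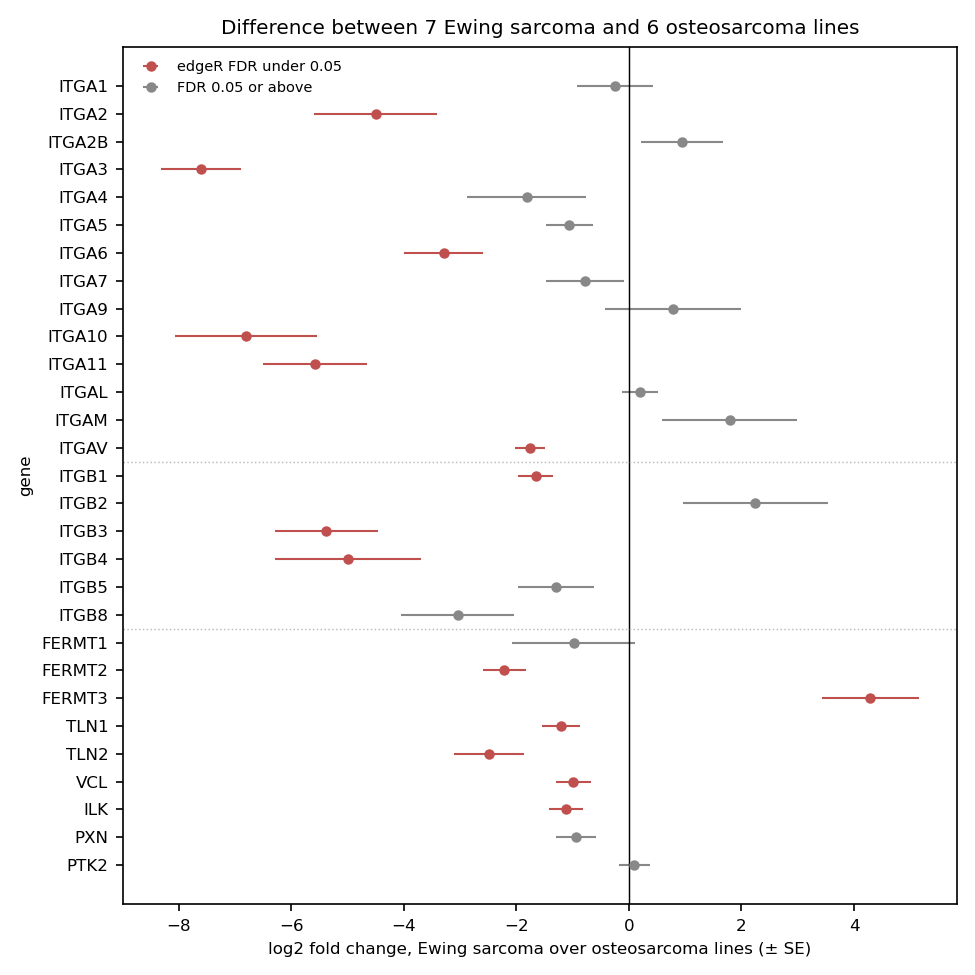
Points give edgeR's log2 fold change of Ewing sarcoma over osteosarcoma lines for the 29 tested members, bars the standard error, and red marks FDR under 0.05. The 14 red points left of 0 include ITGA3 at -7.60, and FERMT3 at 4.29 is the 1 red point on the right.

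ITGA3, the alpha chain of the laminin receptor alpha 3 beta 1, showed the widest separation. In the Ewing sarcoma lines it lay between 0.151 TPM (EW3) and 2.57 TPM (A673) with a median of 0.741, and in the osteosarcoma lines between 103 TPM (KHOS) and 266 TPM (SAOS2) with a median of 168. No Ewing sarcoma line came near the osteosarcoma range. The difference was -7.60 ± 0.72 (log2 fold change ± SE), with an edgeR FDR of 5.1e-05. The gene lies on chromosome 17 at 50056110 to 50090481 (GRCh38.p14).

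ITGA6, the other main laminin-binding alpha chain, also separated the groups. Its levels were 0.577 TPM (EW3) to 8.06 TPM (RDES), median 4.77, in Ewing sarcoma, and 17.6 TPM (SAOS2) to 70.0 TPM (HOS-MNNG), median 28.9, in osteosarcoma. The log2 fold change was -3.29 ± 0.70 (FDR 0.0079). ITGA7, the laminin receptor chain of muscle, did not separate them: 3.42 TPM (EW3) to 28.6 TPM (RDES), median 7.61, against 0.695 TPM (KHOS) to 38.95 TPM (G292), median 15.2. The ranges of ITGA7 overlapped almost wholly, and its log2 fold change of -0.78 ± 0.69 had an FDR of 0.493.

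Of the 4 alpha chains that bind collagen, ITGA2, ITGA10 and ITGA11 were lower in Ewing sarcoma and ITGA1 did not pass. ITGA2 ran from 0.184 TPM (A673) to 2.96 TPM (EW3), median 0.926, against 0.569 TPM (SAOS2) to 74.9 TPM (HOS-MNNG), median 5.70 (log2 fold change -4.50 ± 1.09, FDR 0.0156). ITGA10, a chain best known from cartilage, ran from 0.165 TPM (EW3) to 0.533 TPM (MHHES1), median 0.205, against 0.518 TPM (U2OS) to 132.7 TPM (G292), median 7.75 (-6.80 ± 1.27, FDR 0.0040). ITGA11, a collagen receptor of fibroblasts, ran from 0.167 TPM (TC71) to 0.695 TPM (EW3), median 0.201, against 0.387 TPM (U2OS) to 48.7 TPM (SAOS2), median 4.03 (-5.59 ± 0.92, FDR 0.0020). All 3 ranges overlapped, since SAOS2 lay below the Ewing sarcoma median in ITGA2, and U2OS lay just below MHHES1 in ITGA10 and below EW3 in ITGA11, in each case the highest Ewing sarcoma line. Each difference also leaned on 1 osteosarcoma line: it was -3.27 for ITGA2 without HOS-MNNG, -4.69 for ITGA10 without G292 and -4.68 for ITGA11 without SAOS2, all still under an FDR of 0.05. ITGA1 was highest of all lines in RDES at 20.3 TPM, and its groups, with medians of 2.12 and 4.34 TPM, had a log2 fold change of -0.25 ± 0.68 (FDR 0.845).

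Among the chains that bind fibronectin and related ligands, ITGAV was lower in Ewing sarcoma and ITGA5 did not pass. ITGAV, which pairs with beta 1, 3, 5, 6 and 8, ran from 9.64 TPM (SKES1) to 27.03 TPM (MHHES1), median 14.8, against 25.7 TPM (G292) to 81.8 TPM (SAOS2), median 51.4. Only MHHES1 and G292 overlapped, and the log2 fold change was -1.75 ± 0.26 (FDR 0.0012). ITGA5, the alpha chain of the classical fibronectin receptor, ran from 33.99 TPM (EW24) to 110.4 TPM (A673), median 48.6, against 55.5 TPM (HOS-MNNG) to 295.2 TPM (G292), median 91.8. ITGA5 gave -1.06 ± 0.41 (FDR 0.105), and passed only when A673 was left out (FDR 0.0460).

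ITGA4, whose partners beta 1 and beta 7 make receptors for VCAM1 and fibronectin, varied widely among the Ewing sarcoma lines. It was nearly absent from EW24 at 0.012 TPM and reached 28.5 TPM in MHHES1, with a median of 3.54. The osteosarcoma lines ran from 4.87 TPM (U2OS) to 55.3 TPM (MG63), median 19.7, and the log2 fold change was -1.81 ± 1.06 (FDR 0.276). In limma with line as a random effect ITGA4 passed, at -3.80 ± 0.93 (FDR 0.0023). The remaining alpha chains were low. ITGA8 was at or below 0.024 TPM in every Ewing sarcoma line and between 0.036 TPM (U2OS) and 7.02 TPM (G292) in osteosarcoma, and had too few counts to test. ITGA9 peaked at 3.80 TPM in RDES, ITGA2B at 2.66 TPM in SKES1, ITGAM at 1.42 TPM in MHHES1 and ITGAX at 2.53 TPM in U2OS. ITGA9, ITGA2B, ITGAM and ITGAL did not pass the test, and ITGAD, ITGAE and ITGAX were not tested.

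ITGB1, the most abundant member in 12 of the 13 lines (in TC71 it was second to ITGB2), lies on chromosome 10 at 32900318 to 32958230 (GRCh38.p14) and carried the upstream sequence shown above. It ran from 108 TPM (TC71) to 369.6 TPM (A673), median 265.8, in Ewing sarcoma, and from 421 TPM (SAOS2) to 1027 TPM (MG63), median 617.5, in osteosarcoma. Every Ewing sarcoma line was below every osteosarcoma line, with a log2 fold change of -1.66 ± 0.32 (FDR 0.0045). ITGB3, which pairs with ITGAV or the platelet chain ITGA2B, ran from 0.1004 TPM (SKES1) to 0.311 TPM (TC71), median 0.168, against 1.02 TPM (G292) to 33.6 TPM (MG63), median 2.11. ITGB3 did not overlap either, at -5.38 ± 0.91 (FDR 0.0024), and at -3.49 without MG63.

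**Figure D3:**
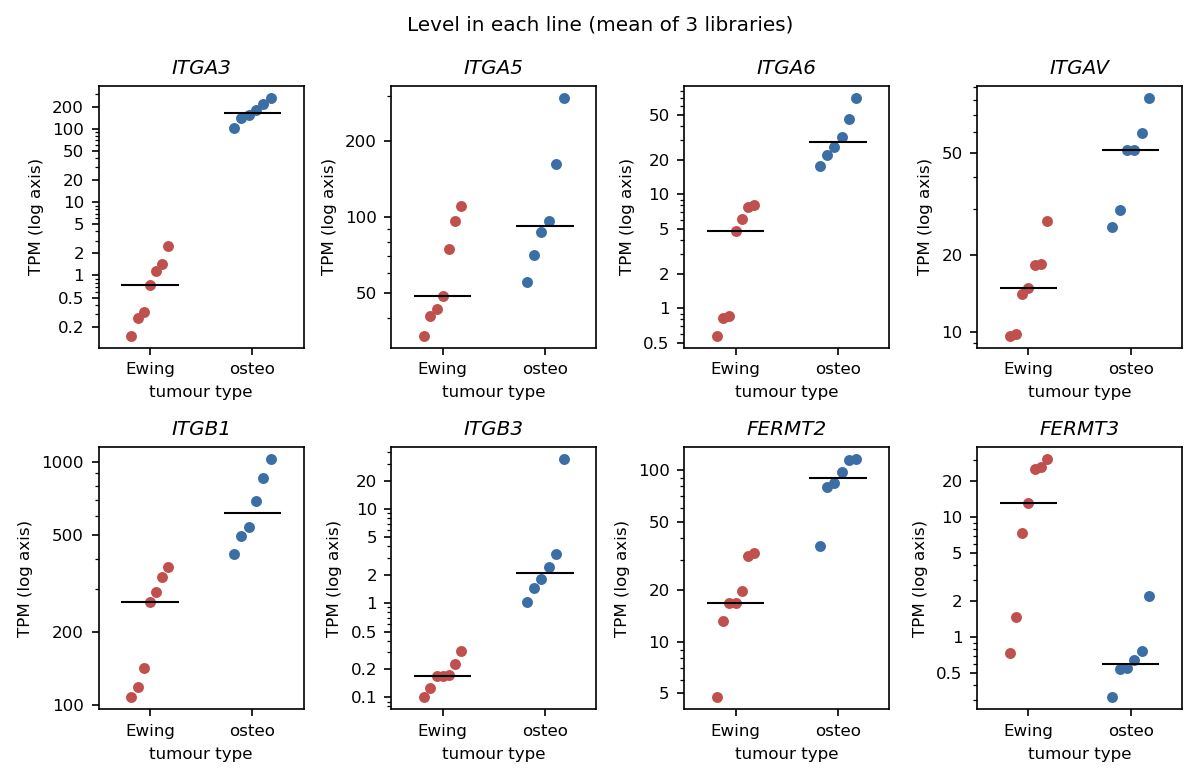
Each point is the TPM of 1 line (mean of 3 libraries, log axis) and the bar is the median of the 7 Ewing sarcoma or 6 osteosarcoma lines. ITGA3, ITGA6, ITGB1, ITGB3 and FERMT2 do not overlap between the tumour types, while ITGA5, ITGAV and FERMT3 do.

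ITGB4, the partner of ITGA6 in hemidesmosomes, was high in 1 line. It ran from 0.263 TPM (A673) to 1.49 TPM (EW24), median 0.853, against 0.119 TPM (MG63) to 147 TPM (SAOS2), median 2.85. The call at -4.99 ± 1.30 (FDR 0.0220) rested on SAOS2: without it the log2 fold change was -1.75 (FDR 0.121). ITGB5, which pairs only with ITGAV, did not pass at -1.29 ± 0.67 (FDR 0.217), although it did in limma with line as a random effect, at -2.12 ± 0.50 (FDR 0.0015). It ran from 1.87 TPM (EW3) to 91.9 TPM (A673), median 37.5, against 55.9 TPM (KHOS) to 200.6 TPM (SAOS2), median 98.2, and TC71 at 6.10 TPM was also low.

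ITGB2, the leukocyte beta chain, was high in 1 Ewing sarcoma line. TC71 had 209.5 TPM, the next Ewing sarcoma line, RDES, had 22.7 TPM, and the lowest, A673, had 3.10 TPM. The osteosarcoma lines ran from 0.086 TPM (G292) to 21.1 TPM (HOS-MNNG), median 8.02. The log2 fold change of 2.24 ± 1.29 (FDR 0.269) did not pass and fell to -0.00039 without TC71. The alpha chains that pair with ITGB2 did not accompany it: in TC71, ITGAL was at 0.053 TPM, ITGAM at 0.017 TPM, ITGAX at 0.063 TPM and ITGAD at 0.0098 TPM. Of 6 leukocyte markers in TC71, PTPRC was at 0.033 TPM, CD14 at 0.091 TPM and LYZ at 0.293 TPM, and CD3E was listed at 0. CD68 was at 5.89 TPM, the highest of the Ewing sarcoma lines, and CD79A at 2.73 TPM, the lowest of them but above every osteosarcoma line. The part of other cells in the ITGB2 level was not tested. Of ITGB2 RNA in TC71, 95.2% ± 1.7 (SD, n = 3) was assigned to the transcript NM_000211.5, as was 96.3% ± 3.7 in RDES. The share was 45.03% ± 6.59 in HOS-MNNG and 50.3% ± 9.8 in SAOS2, where NM_001127491.3 took 53.3% and 48.9%. ITGB8, an ITGAV partner, reached 10.1 TPM in U2OS and 1.16 TPM in EW3 and did not pass (-3.05 ± 1.006, FDR 0.0589), although it did in limma with line as a random effect (FDR 0.0031).

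Of the 3 kindlins among the partners, FERMT2 was lower and FERMT3 higher in Ewing sarcoma, and FERMT1 did not pass. FERMT2, the kindlin of most adherent cells, ran from 4.76 TPM (EW3) to 33.02 TPM (A673), median 16.9, against 36.2 TPM (KHOS) to 115 TPM (SAOS2), median 90.1. The groups of FERMT2 did not overlap, and the log2 fold change was -2.21 ± 0.38 (FDR 0.0025). FERMT3, the kindlin of blood cells, on chromosome 11 at 64205920 to 64223891, was the 1 member that was higher. It ran from 0.733 TPM (EW24) to 30.4 TPM (RDES), median 13.2, against 0.315 TPM (KHOS) to 2.22 TPM (U2OS), median 0.596 (4.29 ± 0.87, FDR 0.0061). EW24 and SKES1, at 0.733 and 1.48 TPM of FERMT3, lay inside the osteosarcoma range.

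FERMT1, the kindlin of epithelia, did not pass (-0.98 ± 1.09, FDR 0.594) and differed more within each tumour type. It was 17.8 TPM in EW24, 16.7 TPM in SKES1 and 20.2 TPM in TC71 while A673, EW3, MHHES1 and RDES ranged from 0.252 TPM (A673) to 1.83 TPM (RDES), the median of the 7. In osteosarcoma it ran from 1.27 TPM (MG63) to 38.3 TPM (G292), median 5.11. EW24 and SKES1 therefore had more FERMT1 than FERMT3, and A673, EW3, MHHES1, RDES and TC71 had more FERMT3 than FERMT1, a pattern chosen after the values were seen. The epithelial gene CDH1 was at 0.057 TPM in EW24, 0.080 TPM in SKES1 and 0.075 TPM in TC71. The summed level of 5 epithelial markers ran from 3.74 TPM (TC71) to 620.5 TPM (A673) in the Ewing sarcoma lines. KRT18 alone was 597.9 TPM of that sum in A673 and KRT8 22.3 TPM, while EPCAM, KRT19 and CDH1 were highest in EW3. Their part in the FERMT1 level was not tested.

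The talins, which link beta tails to actin, were both lower in Ewing sarcoma. TLN1 ran from 53.9 TPM (SKES1) to 105.4 TPM (A673), median 71.8, against 91.7 TPM (KHOS) to 364.5 TPM (MG63), median 121.8 (-1.21 ± 0.33, FDR 0.0282). TLN2 ran from 1.68 TPM (TC71) to 3.98 TPM (RDES), median 2.93, against 1.93 TPM (KHOS) to 59.6 TPM (SAOS2), median 5.46 (-2.49 ± 0.63, FDR 0.0189). Both overlapped between the groups. TLN1 missed the threshold when EW3, EW24, MHHES1 or SKES1 was left out (highest FDR 0.0586) and stood at -0.74 without MG63 (FDR 0.0351). TLN2 stood at -1.35 without SAOS2.

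VCL, which reinforces the talin link under tension, ran from 40.3 TPM (EW24) to 129 TPM (A673), median 84.1, against 87.1 TPM (U2OS) to 186 TPM (MG63), median 150.6. Its log2 fold change of -0.99 ± 0.31 (FDR 0.0483) lay at the threshold and was above it whenever any line other than A673 and U2OS was left out (highest FDR 0.0930). ILK, a scaffold that joins kindlin and the parvins, ran from 32.4 TPM (EW3) to 110.5 TPM (A673), median 56.3, against 74.0 TPM (HOS-MNNG) to 160.6 TPM (U2OS), median 144.1 (-1.12 ± 0.31, FDR 0.0280). ILK missed the threshold without EW24, SKES1, TC71 or KHOS (highest FDR 0.0571).

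The signalling partners did not pass. PXN, the docking protein of focal adhesions, ran from 24.9 TPM (EW24) to 100.7 TPM (TC71), median 67.9, against 64.4 TPM (MG63) to 179.7 TPM (KHOS), median 111.2 (-0.93 ± 0.36, FDR 0.0984), and passed without TC71 (FDR 0.0494). PTK2, the kinase recruited by integrins, ran from 36.5 TPM (TC71) to 134 TPM (RDES), median 110.1, against 48.7 TPM (G292) to 103 TPM (MG63), median 83.8. PTK2 had a log2 fold change of 0.10 ± 0.27 (FDR 0.847), the smallest in size of the 29.

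Across the tested members, 5 of 29 had every Ewing sarcoma line below every osteosarcoma line in TPM: ITGA3, ITGA6, ITGB1, ITGB3 and FERMT2. None had every line above. Over all genes tested, 2.39% were separated in the first way and 3.19% in the second. A further 59 genes of focal adhesions (tetraspanins, actinins, zyxin relatives, adaptors) were described as a comparison list. Of these, 58 were tested and 18 passed, 17 lower and 1 higher in Ewing sarcoma, beside the 14.4% of all genes, with a median of -0.80. Among those called, the largest falls were in TGFB1I1 (-4.44 ± 1.03, FDR 0.0126), a paxillin relative, CD9 (-4.25 ± 1.23, FDR 0.0350), a tetraspanin, and FHL2 (-4.15 ± 0.61, FDR 0.0010), a LIM protein. The 1 rise was in CSRP1 (2.09 ± 0.57, FDR 0.0282), another LIM protein.

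Reading alpha and beta chains together, ITGB1 exceeded each of its 12 possible alpha chains in all 13 lines. The summed TPM of these alpha chains was 68.7 (EW24) to 167 (MHHES1), median 77.4, in Ewing sarcoma and 329.9 (KHOS) to 758.8 (G292), median 423.6, in osteosarcoma, so these ranges did not overlap. The ratio of that sum to ITGB1 was 0.218 (EW3) to 0.791 (TC71), median 0.529, in Ewing sarcoma and 0.411 (MG63) to 1.52 (SAOS2), median 0.730, in osteosarcoma, and overlapped. TPM is scaled for length, so the chains can be set side by side, but RNA levels are not levels of assembled receptor.

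ITGA5 was the leading alpha chain of beta 1 in all 7 Ewing sarcoma lines, with 48.0% (RDES) to 71.2% (A673) of the summed alpha TPM and a median of 57.2%. In osteosarcoma ITGA5 led in G292 alone, at 39.4% ± 6.7 (SD, n = 3) against 23.5% ± 4.9 for ITGA3. ITGA3 led in the other 5 osteosarcoma lines, from 31.2% ± 0.5 in KHOS to 54.3% ± 1.7 in U2OS, and held at most 1.68% in any Ewing sarcoma line. The chains that came second differed by line. In the Ewing sarcoma lines they were ITGAV in A673 (9.05%), EW24 (26.5%), EW3 (25.1%) and SKES1 (13.3%), ITGA4 in MHHES1 (17.1%) and TC71 (14.97%), and ITGA7 in RDES (18.3%). In MHHES1 and TC71 the second place lay within the spread of libraries. ITGA4 and ITGAV held 17.1% ± 1.9 and 16.2% ± 0.8 in MHHES1, and 14.97% ± 6.8 and 11.9% ± 7.1 in TC71. In HOS-MNNG the second chain was the collagen receptor ITGA2 at 17.6% ± 0.8, and in G292 the third was ITGA10 at 17.3%.

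**Figure D4:**
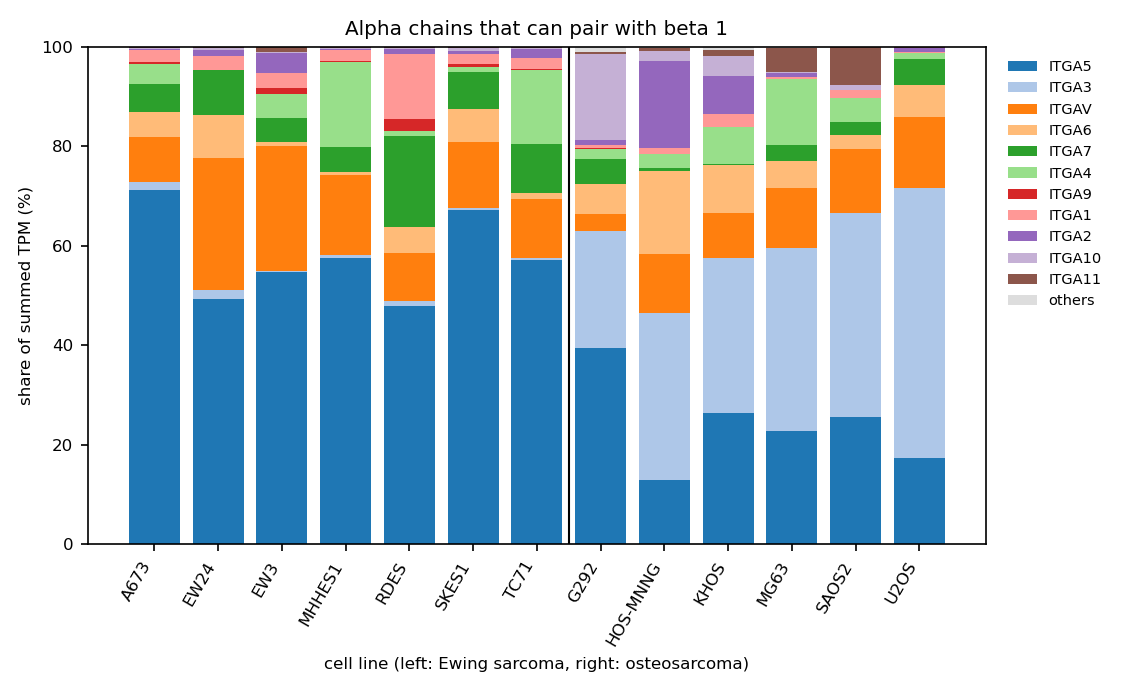
Bars divide the summed TPM of the 12 alpha chains that can pair with beta 1 into percent shares for each line, with Ewing sarcoma left and osteosarcoma right of the vertical line. ITGA5 takes 48.0% to 71.2% in the Ewing sarcoma lines, and ITGA3 takes 23.5% to 54.3% in the osteosarcoma lines.

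Of 24 known heterodimers, the number with both chains at 10 TPM or more was 1 to 5 per Ewing sarcoma line and 7 to 9 per osteosarcoma line. SKES1 had 1 (ITGA5/ITGB1), EW3 had 2 (ITGA5/ITGB1 and ITGAV/ITGB1), TC71 had 2 (ITGA4/ITGB1 and ITGA5/ITGB1) and RDES had 5, adding ITGA1/ITGB1, ITGA7/ITGB1 and ITGAV/ITGB5 to those of EW3. Both chains of ITGA3/ITGB1 and of ITGA6/ITGB1 reached 10 TPM in 6 of 6 osteosarcoma lines and 0 of 7 Ewing sarcoma lines. ITGAV/ITGB5, a vitronectin receptor, did so in 6 of 6 and 4 of 7. Some pairs occurred in 1 line only: ITGA1/ITGB1 in RDES, with 20.3 TPM of ITGA1, ITGAV/ITGB3 in MG63, with 33.6 TPM of ITGB3, ITGA6/ITGB4 in SAOS2, with 17.6 TPM of ITGA6, and ITGAV/ITGB8 in U2OS, with 10.1 TPM of ITGB8. The counts depend on the level of 10 TPM: ITGAV lay just under it in SKES1 (9.64 TPM) and TC71 (9.75 TPM), in SKES1 with 83.1 TPM of ITGB5. No line reached 10 TPM for both chains of any ITGB2, ITGB6 or ITGB7 receptor.

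Transcript use differed for other chains too. ITGA6 RNA was assigned to NM_000210.4 at 51.7% ± 6.2 in HOS-MNNG and 83.4% ± 7.7 in MG63 (SD, n = 3). ITGB5 RNA was assigned to NM_001354764.2 at 68.5% ± 12.6 in SKES1 and 47.2% ± 12.1 in EW24, against 5.80% ± 2.06 in A673. Transcript shares were not tested.

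The hairpin comparison asked what happens to these genes when the KCNN1 hairpin is switched on in A673. KCNN1 itself was at 31.97, 38.9 and 37.2 TPM in parental A673, at 37.8, 35.3 and 17.99 TPM in uninduced sh908 and at 10.2, 13.7 and 7.75 TPM with doxycycline. Every induced library was below every other. Its log2 fold change with doxycycline was -1.53 ± 0.52 (edgeR FDR 1) and, with the replicate number as a block, -1.46 ± 0.13 (FDR 0.0013). None of the 22 members tested was called by edgeR's quasi-likelihood test with doxycycline, with or without the block, where 0 of 14252 genes (0%) were called without it and 0.512% with it. The median log2 fold change was 0.09 over these members and -0.0022 over all genes. By an unadjusted p under 0.05, 1 of 22 members (TLN2) passed without the block and 5 with it, beside 0.66% and 13.2% of all genes, and DESeq2 called none. Of the other focal adhesion genes, 0 of 54 tested were called.

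ITGA5, the leading alpha chain of A673, was at 133.5, 119.7 and 113.5 TPM in the uninduced libraries and 108.9, 132.4 and 135.8 TPM in the induced ones. ITGB1 was at 102, 102 and 253 TPM in the uninduced libraries and 96.2, 97.4 and 292.4 TPM in the induced ones. In both genes the groups overlapped. ITGA3, the laminin chain, was at 2.55, 1.79 and 1.41 TPM before and 5.97, 5.92 and 1.45 TPM after induction, higher in each same-numbered pair but hardly so in replicate 3. With the block and without replicate 3, ITGA3 was the 1 member called of 23 tested (log2 fold change 1.48, FDR 0.0047), beside 1.21% of all genes, while with all libraries it was 1.31 ± 0.70 (FDR 1) and, with the block, 1.08 ± 0.28 (FDR 0.171). TLN2 and FERMT3 had the lowest FDR with the block. TLN2 was at 1.37, 1.31 and 1.82 TPM in uninduced and 0.700, 0.850 and 1.32 TPM in induced cells, lower in each same-numbered pair (51.0%, 65.2% and 72.6% of the uninduced level), with a blocked log2 fold change of -0.64 ± 0.16 (edgeR FDR 0.136). FERMT3 was at 121%, 128.9% and 132.6% of the uninduced level, higher in each pair (blocked 0.38 ± 0.11, edgeR FDR 0.160). Neither passed. ITGA3, TLN2 and FERMT3 were singled out after their values were seen. ITGA3 reached at most 5.97 TPM here, far below the 103 TPM of the lowest osteosarcoma line.

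Replicate 3 differed more than doxycycline did for several members. ITGAV was at 3.39, 2.69 and 13.9 TPM in uninduced cells and 2.46, 2.42 and 15.4 TPM in induced cells, so replicate 3 was 4.56 and 6.30 times the mean of the others. ITGB1 was 2.48 and 3.02 times, PTK2 2.67 and 2.48 times, ITGB2 5.56 and 3.37 times and ITGA4 3.89 and 6.77 times. FERMT3 went the other way, at 19.5, 15.2 and 5.45 TPM in uninduced and 23.7, 19.6 and 7.23 TPM in induced cells. In all, 6 of 22 tested members (27.3%) were at least 2-fold above in replicate 3 of both groups and 1 was as far below, near the 26.8% and 2.32% of all genes. What sets replicate 3 apart was not tested.

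**Figure D5:**
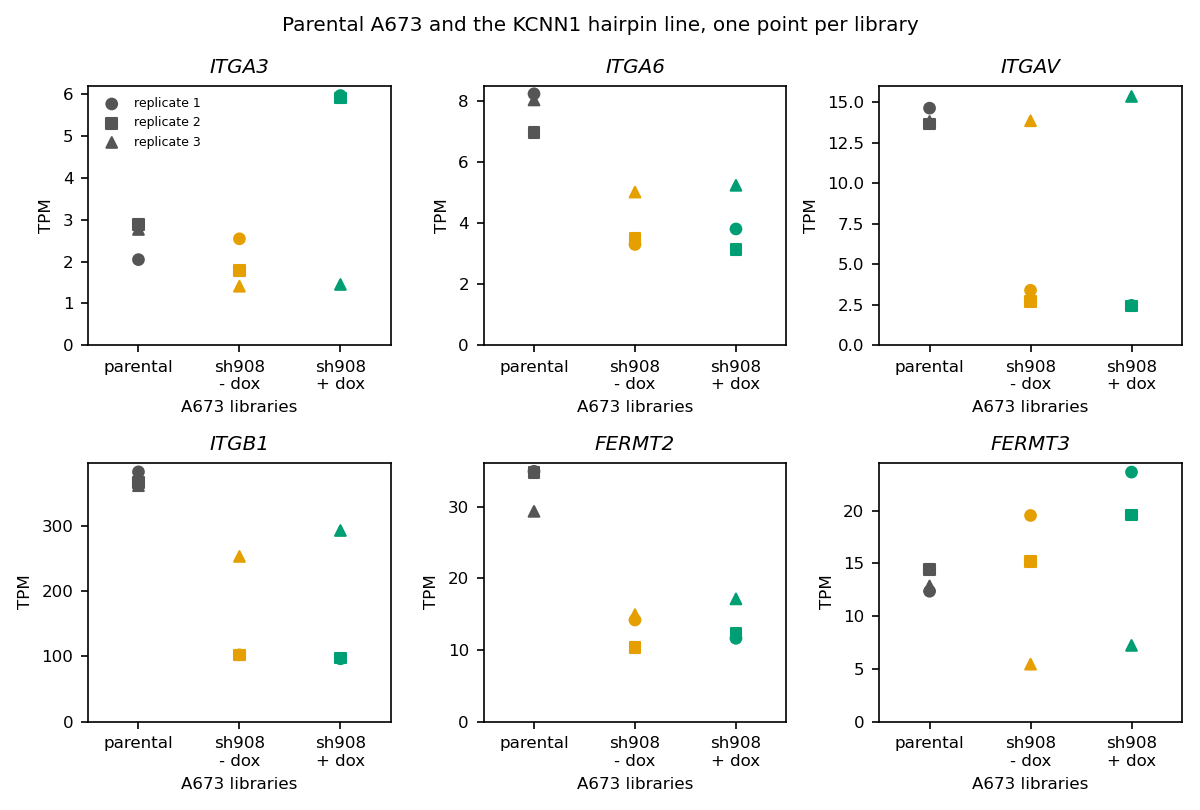
Each point is the TPM of 1 library of parental A673, uninduced sh908 or induced sh908, with the marker giving the replicate number. Replicate 3 lies apart in ITGAV, ITGB1 and FERMT3 of both hairpin groups, and ITGA6, ITGB1 and FERMT2 are lower in every uninduced sh908 library than in parental A673.

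The last comparison set uninduced sh908 cells beside parental A673 and shares the uninduced libraries with the previous one. Of 26 members tested, 4 were called (15.4%), all lower in the hairpin cells, where 15.1% of all 15778 genes were called, 6.42% lower and 8.71% higher. The members as a set did not lean lower: 14 had a positive and 12 a negative log2 fold change, with a median of 0.06. With all 45 libraries fitted together, 14 of 31 members tested were called, 7 higher and 7 lower, beside 32.1% of all genes. Carrying the hairpin and belonging to another set of libraries cannot be told apart. TPM and edgeR's scale differed here: the median log2 TPM ratio of all genes was -0.48 and the median edgeR log2 fold change 0.0081, so a TPM ratio reads about 0.49 lower than edgeR's value.

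ITGB1 was at 382, 366 and 361 TPM in parental A673 and 102, 102 and 253 TPM in uninduced sh908 (-0.92 ± 0.23, FDR 0.0436). FERMT2 was at 34.9, 34.8 and 29.3 TPM and then 14.2, 10.4 and 14.9 TPM (-0.86 ± 0.17, FDR 0.0245). ITGA6 was at 8.24, 6.97 and 8.04 TPM and then 3.30, 3.51 and 5.02 TPM (-0.60 ± 0.14, FDR 0.0348). These 3 genes were also lower in Ewing sarcoma than in osteosarcoma lines. Their parental and hairpin libraries did not overlap in TPM. Nor did those of ITGB5 and TLN2, lower in TPM but with edgeR log2 fold changes of -0.04 and 0.03. On this shifted scale, lack of overlap alone therefore does not show a difference, and its share over all genes is not given here. ITGB8, an ITGAV partner, was at 0.538, 0.627 and 0.528 TPM and then 0.067, 0.039 and 0.084 TPM (-2.82 ± 0.36, FDR 0.0097), low in both groups. VCL was at 128.9, 128.1 and 130.5 TPM and then 73.0, 52.9 and 42.9 TPM, also without overlap in TPM. It did not pass (-0.66 ± 0.32, FDR 0.204), although it did without uninduced replicate 3 (-0.36, FDR 0.0120).

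The calls varied with the libraries used. With the block, which here joins libraries that share only a number, 2.02% of all genes and 0 members were called. Leaving out any 1 parental library also left 0, with at most 0.0505% of all genes called. Leaving out uninduced replicate 1 or 2 left 4 or 1, with 8.25% or 1.6% of all genes. Leaving out uninduced replicate 3 gave 16 of 26 (61.5%), with 62.3% of all genes, so the member count moved with that of all genes. ITGA5 was at 112.3, 107.5 and 111.5 TPM in parental cells, the highest just below uninduced replicate 3 at 113.5 TPM, and did not pass (0.62 ± 0.22, edgeR FDR 0.107), although it did with all 45 libraries in one fit (FDR 0.0143). ITGAV was at 14.6, 13.7 and 13.8 TPM in parental cells, a level reached by uninduced replicate 3 alone. It did not pass either (-0.81 ± 0.44, edgeR FDR 0.245). The summed alpha chains of beta 1 came to 0.420 ± 0.012 of ITGB1 in parental A673, to 1.15 ± 0.47 without the drug and to 1.17 ± 0.50 under it (SD, n = 3). The heterodimers with both chains at 10 TPM or more were 3 in parental A673 and 1, ITGA5/ITGB1, in each hairpin group, since the mean of ITGAV was 6.64 TPM uninduced and 6.74 TPM induced. Those means rest on replicate 3, the 1 library of each group with ITGAV above 10 TPM. TPM ratios also read about 0.49 lower than edgeR's scale in uninduced against parental cells.

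Of the 59 other focal adhesion genes, 56 were tested in uninduced against parental cells and 14 were called (25%), 10 higher and 4 lower, beside 15.1% of all genes, 8.71% higher and 6.42% lower. With the replicate block 1 of them, DOCK1, was called, and with a library left out the count ran from 0 (without any 1 parental library) to 39 (without uninduced replicate 3), and was 1 without uninduced replicate 2, where the shares of all genes were those given above for these fits. Among the genes called without the block, the largest rises were in DOCK1 (2.96 ± 0.21, FDR 0.0036), an exchange factor for RAC, ACTN4 (1.90 ± 0.41, FDR 0.0292), an actinin, and CD82 (1.19 ± 0.23, FDR 0.0219), a tetraspanin. Among the same calls the largest falls were in PARVB (-1.65 ± 0.37, FDR 0.0314), which binds ILK, NEDD9 (-1.40 ± 0.29, FDR 0.0267), a PTK2 substrate, and SDC4 (-1.17 ± 0.21, FDR 0.0182), a syndecan of focal adhesions. Nothing in the labels says that libraries of 1 group came from separate cultures, so p-values of both hairpin comparisons measure the spread between these libraries, which may be technical.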

How the data were processed

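Poly(A) RNA was measured in 45 libraries. Per the submitters' processing notes the tools were fastp 0.19.5 and kallisto 0.46.2 and the builds hg38 and GRCh38.p14. Per the file headers, the authors deposited for each RefSeq transcript an estimated count (not scaled for depth), a TPM value (scaled for effective length and depth) and the effective length in nucleotides, an other value used for a length offset. Of 177816 transcripts, 169966 (95.59%) were joined to 41582 genes through the RefSeq annotation, and the 7850 others held 0.91% to 1.6% of a library's counts. TPM and estimated counts were summed per gene, and counts rounded. Depth was 15974173 to 51413254 per library, and kallisto splits reads shared by similar transcripts, so shares between transcripts are uncertain.

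The main test was edgeR 4.0.16 (quasi-likelihood, robust, filterByExpr, TMM, R 4.3.3) with Benjamini-Hochberg adjustment over all genes tested and calls at FDR under 0.05. For tumour types the 3 libraries of a line were summed, giving 7 against 6 lines. Hairpin groups were compared library by library, and the scripts were tested on simulated data. In the doxycycline comparison same-numbered hairpin libraries deviated together (correlations 0.68, 0.58 and 0.88 for replicates 1, 2 and 3). Every pair passed the rule of a correlation above 0.1 for pairing. The main test nevertheless had no block, and the replicate block is reported beside it as an alternative. Replicates 1 and 2 of different number correlated as well (0.61 and 0.52), so the values chiefly set replicate 3 apart. Alternatives were DESeq2 1.42.0, limma 3.58.1 with line as a random effect, no count filter, upper-quartile scaling, a length offset, a replicate block, a fit of all 45 libraries, HOS-MNNG and KHOS summed into 1 sample, and leaving out each line or library. Full values are given for members called or with a mean of at least 10 TPM in a tumour type, library values in the hairpin comparisons for members called and for the 3 largest differences without overlap at 10 TPM or more, and ITGA3, ITGA4, ITGA5, ITGAV, ITGB2, FERMT3, TLN2 and PTK2 there, with ITGA1 and ITGB8 between tumour types, were added after their values were seen. The 35 members, the 59 other genes and the 33 marker genes were chosen with earlier results of these data known. Promoters are those of RefSeq on GRCh38.p14, and protein sequences were not used here.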

Additional observations from a re-analysis of the deposited data

Results flagged for a closer look

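Levels of members with a mean of at least 10 TPM in a tumour type were screened for a line whose gap to the next line was large for the group's range (Dixon's 95% limit). Of 32 groups of lines tested, 7 held such a line. The usual chance rate of about 1 in 20 does not apply to this count, because several groups reached the mean of 10 TPM through the high line itself and TPM values are skewed, so the lines are given as a description. ITGB2 stood at 209.5 TPM in TC71, with 22.7 TPM in the next Ewing sarcoma line. Among the osteosarcoma lines, ITGA10 stood at 132.7 TPM in G292 (next 12.96 TPM), ITGA2 at 74.9 TPM in HOS-MNNG (next 25.5 TPM) and TLN1 at 364.5 TPM in MG63 (next 144.7 TPM). SAOS2 held 2 such values, ITGB4 at 147.1 TPM (next 5.53 TPM) and TLN2 at 59.56 TPM (next 17.1 TPM). ILK was low in HOS-MNNG at 74.03 TPM, with 138.5 TPM in the next lowest line, although KHOS, of the same origin, was at that next value.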

How the results depend on the processing

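For tumour types, 11 of the 15 called members were called under every alternative that gave a value (DESeq2 gave none for ITGB3 and ITGB4), ITGB4, TLN1, VCL and ILK were not, and none changed direction. The count of members called was 17 with DESeq2, 18 with line as a random effect, 14 with HOS-MNNG and KHOS summed (as for the other focal adhesion genes) and 12 to 16 with a line or replicate left out. Of all genes, 21.1%, 21.7% and 12.4% were called in the first 3 of these fits and 10.7% to 14.3% with a line or replicate left out. The random effect also called ITGA4, ITGB5, ITGB8 and PXN and did not call ITGB4. Counts of other focal adhesion genes were 28 with DESeq2 and 30 with the random effect, against 18. ITGB2, not called, reversed to -0.007989 with DESeq2 and ran from -0.000389 (without TC71) to 2.85 with a line left out, and PTK2, not called, from -0.01645 (without G292) to 0.2581. With doxycycline, leaving out replicate 3 under the replicate block gave 1 member call (ITGA3), beside 1.21% of all genes, and the block changed no other call of a member. For uninduced against parental cells, 4 members were called in the main test, 8 with DESeq2, 14 with all 45 libraries in one fit and 0 to 16 with a library left out, where 15.1%, 21%, 32.1% and 0.0125% to 62.3% of all genes were called. The other focal adhesion genes gave 14, 26 with all 45 libraries and 0 to 39 with a library left out. Here same-numbered libraries correlated at only 0.05, 0.09 and 0.25, so they share a number without being shown to be paired. With the replicate block, 0 members and 1 other gene were called, and with the block and without replicate 1, 2 or 3 there were 0, 0 and 14 members and 1, 2 and 35 other genes, where 1.26%, 2.05% and 52.8% of all genes were called. Line sums carry no replicate number, so no block exists for tumour types. With 1 library per arm removed, the spread is estimated from those left. The cause of these changes was not tested. Genes under 1 TPM rest on few counts.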
